A study of Mus musculus with 14 samples.

Results

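Desmosomes are the junctions that tie the keratin filaments of neighbouring epidermal cells together. Desmogleins and desmocollins, which are cadherins, span the gap between the cells and bind each other there. Inside the cell their tails hold the armadillo proteins plakoglobin and the plakophilins, and these bind desmoplakin, the plakin that reaches the keratins. Dsg2 and Dsc2 are known from simple epithelia and from the basal layer of the epidermis. Dsg3 and Dsc3 are known from the lower layers of the epidermis, and Dsg1 and Dsc1 from its suprabasal layers. The list described here holds 10 mouse genes of this junction, Dsg1a, Dsg2, Dsg3, Dsc1, Dsc2, Dsc3, Pkp1, Pkp3, Dsp and Jup. They were chosen by symbol, and where a gene had several probe sets, the one brightest on average was read. A probe set with a single symbol was found for 8 of the 10 genes, among 17097 genes measured. Dsg3 and Pkp3 had none and were not analysed here. The 8 measured genes had 18 probe sets of the 45141 on the array, of which Dsg2 had 6, Dsp 3, Dsc1, Dsc2 and Dsc3 2 each, and Dsg1a, Pkp1 and Jup 1 each.

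The arrays came from the epidermis of mice aged 15 weeks with skin in homeostasis, either G9a cKO (a conditional knockout of G9a, an enzyme that methylates histone H3 and is encoded by Ehmt2) or G9a Wt, called WT here. Cells of the bulge, the stem cell region of the hair follicle, were read on 4 cKO and 3 WT arrays. The interfollicular epidermis (IFE), the surface between follicles, was likewise read on 4 cKO and 3 WT arrays. The promoter that drives the Cre recombinase, the strain and the way the cells were separated stand in none of the sources used here. The labels do not say whether replicates came from separate animals, so p-values measure the spread between these samples, which may be technical. Values are log2 signals per probe set with an array median between 5.76 and 5.84, and the number of arrays limits their precision. Ehmt2 averaged 5.95 in bulge cKO and 9.63 in bulge WT, and 6.01 in IFE cKO and 9.67 in IFE WT, on 1 of its 2 probe sets. No cKO array overlapped a WT array on it, with 5.85 to 6.09 on cKO arrays and 9.51 to 9.78 on WT arrays. The other Ehmt2 probe set read 7.84 to 8.03 on cKO arrays and 7.84 to 8.05 on WT arrays. The bulge WT arrays carried the markers of their label. All 9 bulge markers, among them Cd34 and Lgr5, were higher in bulge WT than in IFE WT (adjusted p under 0.05). The same held for 18.4% of all genes, and no list of IFE markers was read.

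Most of the measured desmosome genes had lower signals in the bulge than in the interfollicular epidermis. In WT cells 6 of the 8 genes were lower in the bulge at an adjusted p under 0.05, against 16.6% of all genes tested. These were Dsg1a, Dsg2, Dsc2, Dsc3, Pkp1 and Jup. None was higher, while 18.4% of all genes were. The median difference over the 8 genes was -0.53 on the log2 scale, beside -0.01 over all genes. All bulge WT arrays lay below all IFE WT arrays for the same 6 genes and above them for Dsp, and each of these patterns was found for 23.7% of all genes. In bulk samples, fewer cells of a type and less RNA per cell cannot be told apart. By the same threshold 4 of 9 suprabasal and 4 of 7 Langerhans cell markers were lower in bulge WT, and none was higher. Of 6 melanocyte markers 1 was lower, and of 3 sebaceous markers 1 was higher. No T cell, fibroblast, endothelial or Merkel cell marker passed. The part of such cells in the desmosome signals was not tested.

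**Figure D1:**
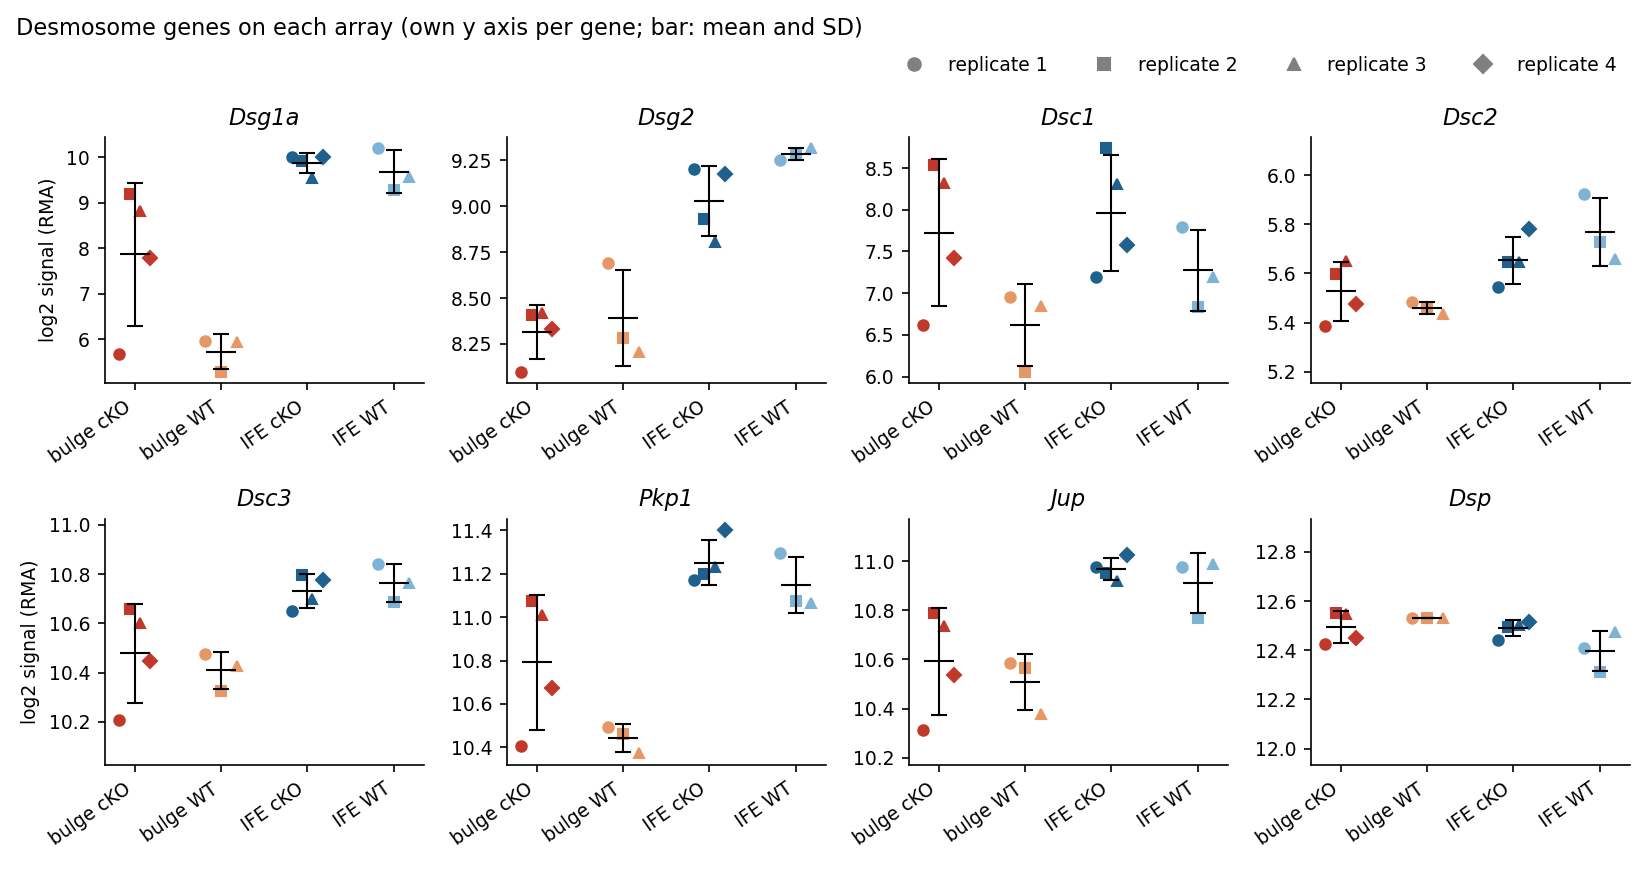
Signal of each measured desmosome gene on each array (vertical axis: log2 signal, own scale per gene) in bulge cKO, bulge WT, IFE cKO and IFE WT, with symbols for replicate numbers and bars for the mean and SD. Dsg1a lies between 5.28 and 5.95 on the bulge WT arrays and between 9.28 and 10.20 on the IFE WT arrays, while the 4 bulge cKO arrays spread between 5.68 and 9.18.

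Among the cadherins, Dsg1a, a desmoglein of the suprabasal layers, differed by far the most. It read 5.95, 5.28 and 5.94 on bulge WT arrays, against 10.20, 9.28 and 9.56 on IFE WT arrays. The bulge WT arrays were thus low throughout and far from overlapping the IFE WT arrays. The log2 difference was -3.95 (SE 0.68), 15.5-fold lower in bulge WT, with an adjusted p of 7.2e-04. Its group means spanned 4.14 on the log2 scale, a larger span than in 99.8% of genes, and its signal fell below the array's own median on 2 of 14 arrays. Dsg1a has close relatives in the mouse, Dsg1b and Dsg1c, and whether its probes also read them was not tested.

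Dsg2, the desmoglein of simple epithelia that is also found in basal keratinocytes, read 8.69, 8.28 and 8.21 on bulge WT arrays, against 9.25, 9.29 and 9.31 on IFE WT arrays. The groups did not overlap, and the IFE WT arrays lay within a narrow range. The log2 difference was -0.89 (SE 0.13, adjusted p = 3.3e-04), which is 1.86-fold lower in bulge WT. The same direction was found on all 6 Dsg2 probe sets, with log2 differences between -1.40 and -0.89, and each of them passed the threshold, as 36.8% of all probe sets did when probe sets were tested by themselves. Of the 18 desmosome probe sets, 12 passed it, all lower in bulge WT.

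The 3 desmocollins, the partners of the desmogleins in the junction, differed less. Dsc3, the desmocollin of the basal layers, averaged 10.41 ± 0.08 in bulge WT and 10.76 ± 0.08 in IFE WT (SD, n = 3 each), and its log2 difference was -0.36 (SE 0.098), with an adjusted p of 0.0135. Its other probe set differed by -0.25 and did not pass the threshold (adjusted p = 0.083). Dsc2, the most widely expressed desmocollin, averaged 5.46 ± 0.02 in bulge WT and 5.77 ± 0.14 in IFE WT (SD, n = 3 each), and differed by -0.31 on the log2 scale (SE 0.083), with an adjusted p of 0.0118. Leaving out 1 array, IFE WT replicate 1 for Dsc2 and either that array or bulge WT replicate 2 for Dsc3, brought the adjusted p to between 0.052 and 0.054. Dsc2 was dim, below the array's own median on 12 of 14 arrays. Dsc1, the desmocollin of the upper layers, averaged 6.62 ± 0.49 in bulge WT and 7.27 ± 0.49 in IFE WT (SD, n = 3 each). Its difference of -0.66 (95% interval -1.77 to 0.45, adjusted p = 0.36) did not pass the threshold, and its arrays overlapped. The 6 cadherin genes of the list lie in the same stretch of mouse chromosome 18, between 19960930 and 20604526 in GRCm38.p6, with gaps between some of them.

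**Figure D2:**
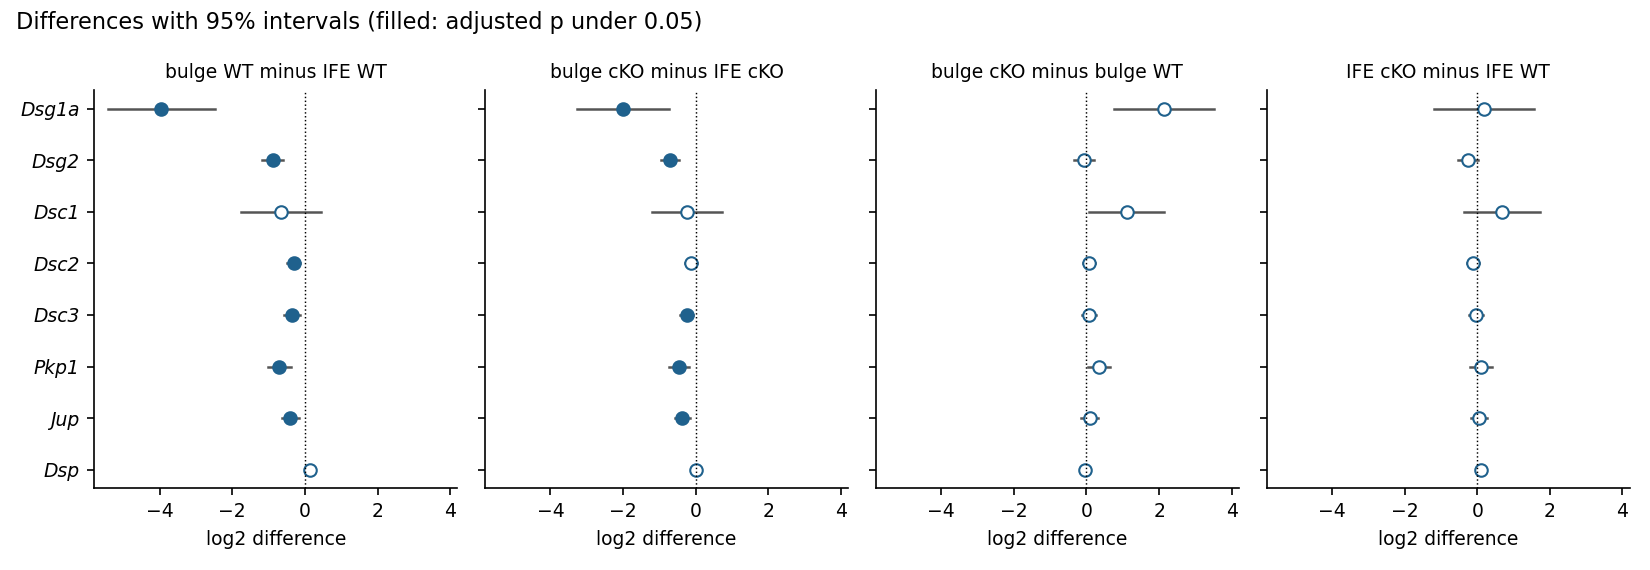
Log2 differences of the 8 genes (horizontal axis) in 4 comparisons, with 95% intervals; filled points have an adjusted p under 0.05. Between compartments 6 genes are filled in WT and 5 in cKO, all lower in the bulge, and between genotypes none is filled in either compartment.

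Of the plaque proteins, Pkp1, the plakophilin of the upper layers that binds desmoplakin, read 10.49, 10.46 and 10.37 on bulge WT arrays, against 11.30, 11.08 and 11.07 on IFE WT arrays. No arrays overlapped. The log2 difference was -0.70 (SE 0.14, adjusted p = 0.0024), 1.63-fold lower in bulge WT. Jup, which encodes plakoglobin, read 10.58, 10.56 and 10.38 on bulge WT arrays, against 10.97, 10.77 and 10.99 on IFE WT arrays. It was lower on every bulge WT array, by -0.40 on the log2 scale (SE 0.11, adjusted p = 0.0131), and by -0.34 without bulge WT replicate 3, with an adjusted p of 0.057. The only Jup probe set carries the suffix by which the array's maker marks probes that match several transcripts.

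Dsp, which encodes desmoplakin, was the only one of the 8 genes with a higher mean in bulge WT. It read 12.53 on all 3 bulge WT arrays, against 12.41, 12.31 and 12.47 on IFE WT arrays. The bulge WT arrays were all above the IFE WT arrays, but the log2 difference of 0.13 (SE 0.050, adjusted p = 0.059) did not pass the threshold. The 3 Dsp probe sets differed by 0.09 to 0.13, and none passed. It passed in 6 of the 18 alternatives tried, 1 of them the looser threshold of 0.1, for example at 0.17 without IFE WT replicate 3 (adjusted p = 0.0285), and its difference was between 0.085 and 0.21 in all of them.

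Jup and Dsp, which encode linked proteins of the inner plaque, are shown with the 250 bases before their annotated starts. They are shown because no other gene of the list had such bases available to print, and not for their signals. Their differences between the WT compartments had opposite signs, but that of Dsp did not pass the threshold. The bases are those of RefSeq on GRCm38.p6, written 5′ to 3′ on the strand of the gene, with capitals for matches on either strand to the GC box, GGGCGG, and to the box named CCAAT after its letters. Jup lies on the minus strand of chromosome 11 (chr11:100397791-100398040), and Dsp on the plus strand of chromosome 13 (chr13:38151044-38151293). The Jup gene as annotated reaches to 100397839, so the end of its window, with the second GC box, lies inside the gene.
Jup: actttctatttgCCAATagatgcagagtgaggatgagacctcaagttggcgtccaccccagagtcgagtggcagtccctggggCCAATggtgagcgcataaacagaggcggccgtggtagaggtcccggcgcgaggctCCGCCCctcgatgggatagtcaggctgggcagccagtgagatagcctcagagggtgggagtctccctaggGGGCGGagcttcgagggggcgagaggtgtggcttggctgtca
Dsp: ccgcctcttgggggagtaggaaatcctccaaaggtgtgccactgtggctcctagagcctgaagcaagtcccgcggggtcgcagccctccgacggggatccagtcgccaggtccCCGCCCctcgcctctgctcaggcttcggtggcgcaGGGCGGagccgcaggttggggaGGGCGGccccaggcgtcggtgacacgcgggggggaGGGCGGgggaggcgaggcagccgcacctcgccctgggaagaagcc
The Jup window holds 2 GC boxes and 2 CCAAT boxes and is 62% G and C. The Dsp window holds 4 GC boxes and no CCAAT box and is 72.4% G and C. The median was 52.4% over 32851 windows of the same length before such start sites. A GC box was found in 32.7% of those windows and a CCAAT box in 33.8%. Neither of the windows shown holds a TATA box, TATAAA, which was found in 12.4% of windows. Neither holds the AP-1 motif, searched as TGANTCA and found in 6.75% of windows. Neither holds the motif of Grainyhead-like factors, searched as AACCNGTT and found in 1.79%. These motifs do not overlap each other in the windows shown, and a match is a description only.

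In cKO cells the bulge was again lower, for 5 of the 8 genes (Dsg1a, Dsg2, Dsc3, Pkp1 and Jup), against 14.6% of all genes. Dsg2 averaged 8.32 ± 0.15 in bulge cKO and 9.03 ± 0.19 in IFE cKO (SD, n = 4 each), with a log2 difference of -0.71 (SE 0.12, adjusted p = 0.001). Jup differed by -0.38 (SE 0.095, adjusted p = 0.0106) and Pkp1 by -0.46 (SE 0.13, adjusted p = 0.0151). Dsg1a differed by -2.00 (SE 0.59, adjusted p = 0.0209), and without IFE cKO replicate 4 by -1.96 with an adjusted p of 0.052. With only the cKO arrays in the fit its adjusted p was 0.061. Dsc3 differed by -0.25 (adjusted p = 0.0393) with overlapping arrays, and did not pass in 10 of the alternatives tried. All bulge cKO arrays lay below all IFE cKO arrays for 4 genes, against 15% of all genes. Without bulge cKO replicates 2 and 3, which stand apart as described below, the log2 differences were -3.14 for Dsg1a, -0.81 for Dsg2, -0.71 for Pkp1, -0.55 for Jup and -0.40 for Dsc3. Each of these was larger in size than with all arrays, and the adjusted p-values were between 4.2e-04 and 0.0035. Without bulge cKO replicate 1 they were smaller, at -1.27 for Dsg1a (adjusted p = 0.0138), -0.33 for Pkp1, -0.28 for Jup and -0.16 for Dsc3, which no longer passed (adjusted p = 0.085). In all 8 genes replicates 2 and 3 were the highest bulge cKO arrays and replicate 1 the lowest. The direction of both shifts was therefore fixed in advance. Dsp averaged 12.49 in both cKO groups. The WT and cKO comparisons of the compartments use different arrays.

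**Figure D3:**
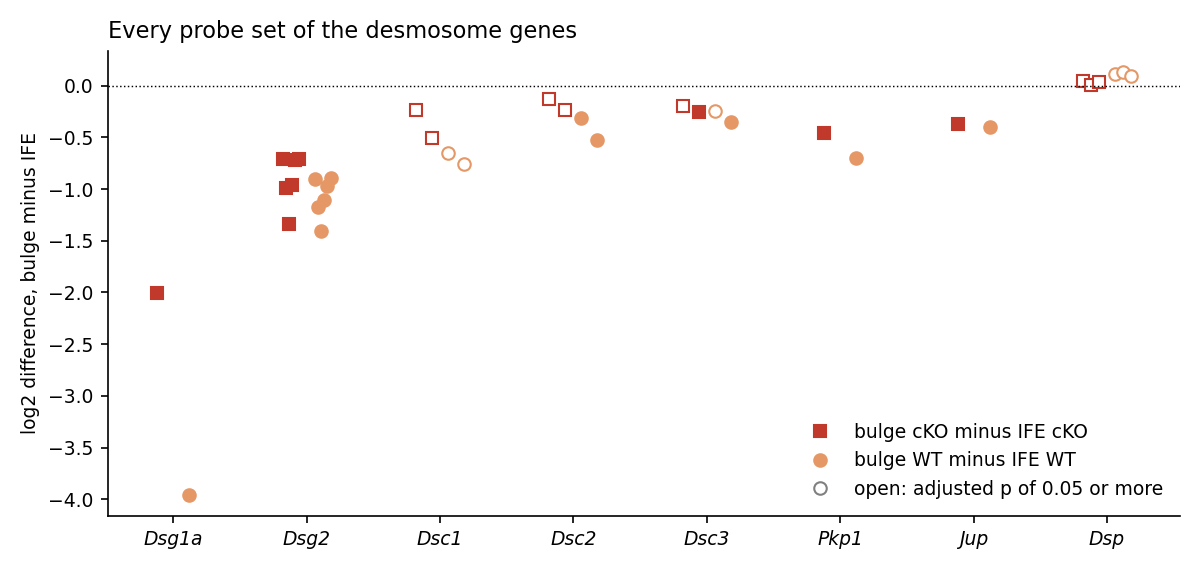
Log2 difference, bulge minus IFE (vertical axis), of each of the 18 probe sets of the 8 genes in cKO cells (squares) and WT cells (circles); open symbols have an adjusted p of 0.05 or more over all probe sets. All 6 Dsg2 probe sets lie below 0 in both genotypes, and the 3 Dsp probe sets lie at or just above 0.

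Between genotypes, no desmosome gene passed the threshold in bulge cells, where 3.84% of all genes did. By limma, 3 of the 8 genes had an unadjusted p under 0.05, Dsg1a, Dsc1 and Pkp1, all with the higher mean in bulge cKO, while 25.7% of all genes had one. The median difference over the 8 genes was 0.08 on the log2 scale, beside 0.01 over all genes. No gene had all bulge cKO arrays above all bulge WT arrays, a pattern found for 10.5% of all genes.

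Dsg1a read 5.68, 9.18, 8.81 and 7.79 on bulge cKO replicates 1 to 4, against 5.95, 5.28 and 5.94 on bulge WT arrays. Replicate 1 lay within the bulge WT arrays and the other cKO replicates lay above them. The log2 difference was 2.14 (SE 0.63, 95% interval 0.76 to 3.51) with an adjusted p of 0.074. The call depended on single arrays. Without bulge cKO replicate 1 the difference was 2.87 and passed the threshold (adjusted p = 0.0012), and without replicates 2 and 3 it was 1.01 and did not (adjusted p = 0.551). The order of its group means was IFE cKO, IFE WT, bulge cKO and bulge WT. The IFE groups overlapped, and so did the bulge groups, while the highest bulge cKO array, at 9.18, lay just under the lowest IFE WT array, at 9.28.

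Dsc1 read 6.62, 8.53, 8.32 and 7.42 on bulge cKO arrays, against 6.95, 6.06 and 6.84 on bulge WT arrays. It was again replicates 2 and 3 that were highest. The log2 difference was 1.11 (95% interval 0.07 to 2.14, adjusted p = 0.172), and 0.40 without those replicates. Pkp1 read 10.41, 11.08, 11.01 and 10.67 on bulge cKO arrays, against 10.49, 10.46 and 10.37 on bulge WT arrays. Its difference was 0.35 (95% interval 0.05 to 0.64, adjusted p = 0.137). It was 0.48 without bulge cKO replicate 1, with an adjusted p of 0.0266, and 0.10 without replicates 2 and 3. The other 5 genes, Dsg2, Dsc2, Dsc3, Dsp and Jup, differed by -0.08 to 0.08, with 95% intervals that reached no further than -0.35 and 0.31. Weighting the arrays by their fit also changed these calls, to 6 desmosome genes with limma's default weights, whose estimation did not converge, and to 3 with weights estimated gene by gene.

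The 4 bulge cKO arrays ran in parallel for the desmosome genes. In all 8 genes replicates 2 and 3 were above replicate 4, and replicate 4 above replicate 1, an order found in 15.3% of all genes and looked at after these values were seen. On replicates 2 and 3, 7 of the 8 genes lay above every bulge WT array, as did 43.8% of all genes on replicate 2 and 39.6% on replicate 3. On replicate 4 it was 3 of the 8, against 27.9% of all genes, and on replicate 1 none, against 31%. Replicate 1 lay below every bulge WT array in 5 of the 8 genes and in 33.5% of all genes. The exception on replicates 2 and 3 was Dsg2, with 8.41 and 8.42 within the bulge WT arrays. In IFE cKO, replicates 2 and 3 were above replicates 1 and 4 for 1 of the 8 genes, Dsc1, against 18.4% of all genes.

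Several marker lists of other cells moved with these arrays, though not all did so in the same order. The mean of the 9 suprabasal markers, among them Ivl and Lor, was 7.14, 8.62, 8.35 and 7.87 on the bulge cKO arrays, against 6.51 to 7.10 on bulge WT arrays. The mean of the 9 bulge markers ran the other way, with 9.99, 9.19, 9.36 and 10.18 on bulge cKO arrays, against 10.18 to 10.35 on bulge WT arrays. The 7 Langerhans markers averaged 6.50 to 7.33 on bulge cKO arrays and 5.90 to 6.16 on bulge WT arrays, and the 6 T cell markers 5.47 to 6.22 on bulge cKO arrays and 5.16 to 5.39 on bulge WT arrays. The 6 fibroblast markers averaged 5.16, 5.91, 5.55 and 5.20 on bulge cKO arrays, against 4.98 to 5.22 on bulge WT arrays. The 3 sebaceous markers averaged 7.64, 8.38, 7.95 and 8.24 on bulge cKO arrays, against 7.56 to 7.67 on bulge WT arrays. The melanocyte, endothelial and Merkel cell lists moved less. On bulge cKO arrays they averaged 5.07 to 5.24, 5.26 to 5.39 and 5.20 to 5.36. On bulge WT arrays these were 4.96 to 5.17, 5.22 to 5.33 and 5.15 to 5.24. At an adjusted p under 0.05, 2 of 9 suprabasal, 4 of 7 Langerhans and 1 of 3 sebaceous markers were higher in bulge cKO. So were 1 of 4 endothelial and 1 of 4 Merkel cell markers, against 1.98% of all genes. None of the 9 bulge, 6 T cell, 6 fibroblast and 6 melanocyte markers passed. In IFE cKO, replicates 2 and 3 read 6.65 and 6.53 for the bulge marker Cd34, against 5.10 and 5.16 on replicates 1 and 4. The part of other cells in the signals of Dsg1a, Dsc1 and Pkp1 was not tested.

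**Figure D4:**
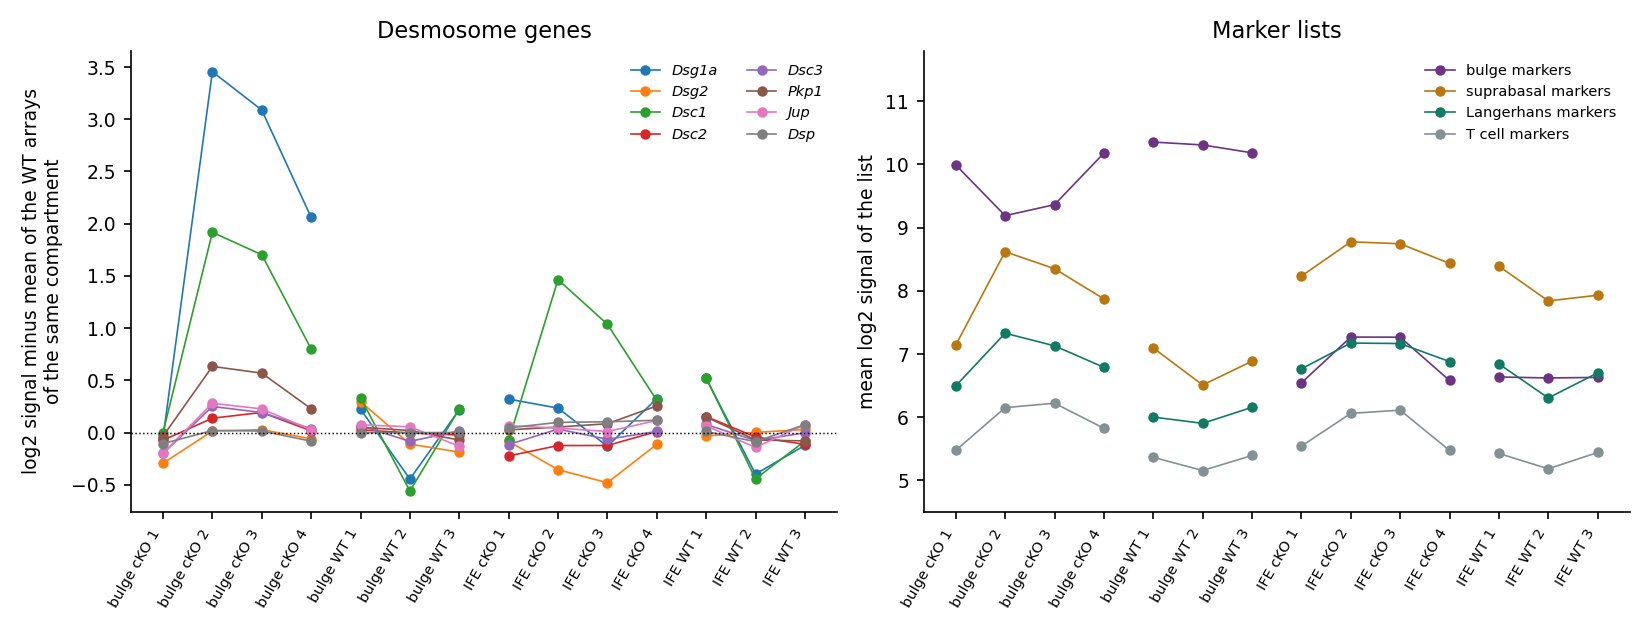
Left, signal of each of the 8 genes on each array minus the mean of the WT arrays of the same compartment (log2); right, mean log2 signal of the bulge, suprabasal, Langerhans and T cell marker lists on the same arrays. Lines join the arrays of a group only to guide the eye. Among the bulge arrays, bulge cKO replicates 2 and 3 stand highest for Dsg1a and Dsc1 and for the suprabasal list, and lowest for the bulge list.

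In IFE cells no desmosome gene passed the threshold between genotypes, where 0.497% of all genes did, and by limma none had an unadjusted p under 0.05, against 11% of all genes. Dsg1a averaged 9.87 ± 0.22 in IFE cKO (SD, n = 4) and 9.68 ± 0.47 in IFE WT (SD, n = 3), a log2 difference of 0.19 (95% interval -1.19 to 1.56). Dsg2 read 9.20, 8.93, 8.80 and 9.17 on IFE cKO arrays, against 9.25, 9.29 and 9.31 on IFE WT arrays. It was the only one of the 8 genes with all IFE cKO arrays below all IFE WT arrays, a pattern found for 5.97% of all genes. Its difference of -0.26 (95% interval -0.53 to 0.02) had an adjusted p of 0.489, and its 6 probe sets differed by -0.36 to -0.14. Dsc1 read 7.20, 8.74, 8.31 and 7.58 on IFE cKO arrays, against 7.80, 6.83 and 7.19 on IFE WT arrays, and its difference of 0.68 (95% interval -0.36 to 1.72) had an adjusted p of 0.681. Leaving out 1 array gave differences between 0.42 and 0.95, and it was 0.12 when replicates 2 and 3 of bulge cKO and IFE cKO were dropped. On the same IFE cKO arrays the suprabasal list averaged 8.23, 8.78, 8.75 and 8.44, against 7.84 to 8.39 on IFE WT arrays. The T cell list averaged 5.54, 6.06, 6.11 and 5.47 on IFE cKO arrays, against 5.18 to 5.44 on IFE WT arrays. Their part in the Dsc1 signal was not tested. The intervals of the remaining genes, Dsc2, Dsc3, Pkp1, Dsp and Jup, reached no further than -0.28 and 0.40.

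The effect of the knockout in bulge cells minus that in IFE cells was tested directly and passed for none of the 8 genes, against 0.105% of all genes. By limma, 1 of the 8 genes, Dsg1a, had an unadjusted p under 0.05, as did 14.1% of all genes. The Dsg1a difference of effects was 1.95 (95% interval 0.01 to 3.90, adjusted p = 0.354). For the other 7 genes it lay between -0.13 for Dsp and 0.42 for Dsc1.

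For the genes whose group means spanned at least 1 on the log2 scale, the gene with the most similar profile over the 14 arrays was sought. For Dsg1a this was Il1rn, the interleukin 1 receptor antagonist, with a root mean square difference of 0.29 after centring each gene on its mean. Il1rn read 6.29, 8.89, 8.67 and 7.56 on bulge cKO arrays, against 6.31, 5.92 and 6.38 on bulge WT arrays, so that the order of the cKO replicates was that of Dsg1a. It was picked for its likeness on these same arrays, so the shared order is no separate result. For Dsc1 it was Nccrp1, with a root mean square difference of 0.175. The spans of the other genes were 0.97 for Dsg2, 0.81 for Pkp1, 0.46 for Jup, 0.36 for Dsc3, 0.31 for Dsc2 and 0.13 for Dsp, beside a median of 0.24 over all genes.

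Genes that work with desmosomes were set side by side between bulge WT and IFE WT in the same way, where 16.6% of all genes were lower and 18.4% higher. Of 10 measured relatives, such as other desmogleins and plakophilins and the plakins, 4 were lower, 1 was higher and 5 did not pass. Pkp4, an armadillo protein of cell contacts, differed by -1.67, Dsg1b by -1.41 and Kazn, a binding partner of periplakin, by -1.15. Named after their values were seen, Evpl, which encodes envoplakin, was lower by -0.44 and Tchp, a keratin-binding protein, higher by 0.66. Of 7 regulators known to act on epidermal differentiation or junction genes, 4 were lower and 1 higher. Klf5 differed by -2.38, Grhl3 by -1.48 and Zfp750 by -1.10. Grhl1, known to act on Dsg1a in mouse skin and named after its value was seen, differed by -1.52, and Trp63, the master factor of the epidermal lineage, was higher by 0.35. Of 8 proteases and inhibitors that act on desmosomes as cells are shed or on cadherins, 4 were lower and none higher, with Klk8 at -2.08, Adam10 at -0.65 and St14 at -0.35.

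The keratins, to which desmosomes anchor, included 6 lower and 1 higher of 11 measured. Krt15, a basal keratin used as a bulge marker, was higher in bulge WT by 1.11, while Krt1, of the suprabasal layers, was lower by -2.50 and Krt16 by -2.35. Of 12 tight junction genes 8 were lower and none higher, with Marveld3 at -2.04, Marveld2 (tricellulin) at -1.52 and Tjp1 (ZO-1) at -1.13. Of 12 adherens junction genes 5 were lower and 2 higher. There Nectin2 differed by -1.84, Cdh1 (E-cadherin) by -1.10 and Afdn (afadin) by 2.36. Of 5 genes on the gap junction list, which holds connexins and the pannexin Panx1, 3 were lower. These were Gjb2 by -1.87, Panx1 by -1.66 and Gja1 (connexin 43) by -0.91. The hemidesmosome list, whose genes anchor basal cells to the basement membrane, had 4 of 8 higher and 1 lower. Dst was higher by 0.57 and Lamb3 by 0.39, while Itga6, the alpha 6 integrin, was lower by -0.87.

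In the bulge, a few of these genes passed the threshold between genotypes, where 3.84% of all genes did. Klf5 was higher in bulge cKO by 1.09 (adjusted p = 0.0104), with all cKO arrays above all WT arrays, and was the only one of 7 regulators to pass. Nectin4, a nectin of adherens junctions, was higher by 1.34 (adjusted p = 0.0396) and Cdh3 (P-cadherin) lower by -0.50 (adjusted p = 0.0352), out of 12 adherens junction genes. Marveld2 was higher by 0.82 and Tjp3 by 0.39 out of 12 tight junction genes. Lama3 was lower by -0.40 and Itgb4, the beta 4 integrin, by -0.36 out of 8 hemidesmosome genes. Without bulge cKO replicates 2 and 3 these 7 genes kept their direction and none passed, with Klf5 at 0.86 (adjusted p = 0.127), Nectin4 at 0.81, Cdh3 at -0.39, Marveld2 at 0.46, Tjp3 at 0.25, Lama3 at -0.23, Itgb4 at -0.30 and adjusted p-values of up to 0.361. None of the 10 relatives, 11 keratins, 5 genes on the gap junction list and 8 proteases and inhibitors passed. Their median differences were 0.25, 1.06, 0.27 and 0.94 beside 0.01 over all genes. In IFE cells no gene of these 8 lists passed between genotypes, where 0.497% of all genes did.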

How the data were processed

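Total RNA of bulge and IFE cells (TRizol) was turned into amplified cDNA, which carried biotin and was read on Affymetrix arrays, per the labels' protocols. Each deposited value is the log2 signal of 1 probe set, for which the authors used RMA (background correction, quantile normalisation and summary of probes), per the submitters' processing notes. RMA draws arrays towards one distribution and compresses large differences, and no source used here gives its version. All 14 arrays were used, with no filter on dim probe sets.

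Probe sets were named through the platform annotation and Entrez identifiers: 28898 had a single symbol, 551 several and 15692 none, and 28689 took the RefSeq symbol. The probe set with the highest mean stood for each of 17097 genes. A mean per group was fitted to all arrays with lmFit and eBayes of limma 3.58.1 under R 4.3.3, with no trend and with 10 residual degrees of freedom, and tests were two-sided, with Benjamini-Hochberg adjustment over all genes and a threshold of 0.05. A fold is 2 to the size of the log2 difference. Tested on simulated data with 17097 genes, the fit recovered a log2 change of 1 in 97% of 67 genes between bulge genotypes, 92.5% between IFE genotypes and 91% between WT compartments. For a change of 0.5 it was 73.1%, 71.6% and 62.7% of 67 genes, and 9 to 13 unchanged genes were called in each comparison. The simulated noise was independent between arrays, with the same spread of a gene in all groups. In the data Dsg1a had an SD of 1.57 in bulge cKO and 0.38 in bulge WT, and Dsg2 0.15 and 0.26. For genes as unevenly spread as Dsg1a the recovered shares may be too high.

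The genes and lists were chosen with earlier results of these data known. Named were all members, in each other list the 3 genes with the smallest p in a comparison, Ehmt2, and the nearest profile of members whose group means span at least 1; exceptions are marked. Marker genes used as examples, the order of the bulge cKO arrays and the promoter motifs were chosen after values were seen. Alternatives were other scalings, filters, probe set choices, weights, blocks and left-out arrays. Figures were drawn with matplotlib 3.10.9.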

Additional observations from a re-analysis of the deposited data

How the results depend on the processing

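Of 859 values of single desmosome genes under the alternatives, 783 kept their direction and their side of the threshold, 16 no longer passed, 23 newly passed and 37 changed sign, none of the last passing with either sign. The compartment differences of Dsg1a, Dsg2 and Pkp1 in WT passed under all alternatives, and those of Dsc2, Dsc3 and Jup lost their calls only when 1 array was left out, with the highest adjusted p at 0.053, 0.054 and 0.057. The comparison of genotypes in bulge cells depended on how arrays were weighted. Limma's default array weights, the setting planned, did not converge and gave bulge cKO replicate 3 a weight of 15.5. They called 6 desmosome genes and 8242 genes in bulge cells, 1458 genes in IFE cells, 3 and 4974 in the difference of effects, and 10318 between the cKO compartments. Weights estimated gene by gene were added after those counts had been seen. They gave that array 3.74 and called 3 desmosome genes and 5766 genes in bulge cells, 904 in IFE cells, and 2 and 2520 in the difference of effects. In both cases the largest weight fell on 1 of the arrays that stand apart, and the unweighted fit, as designed, is the one reported.

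The number of all genes called was 656 in bulge cells, 85 in IFE cells and 18 in the difference of effects. With only the groups compared it was 72 in bulge and 48 in IFE cells, and 3 desmosome genes passed between the cKO compartments. At an adjusted p under 0.1 it was 2015, 176 and 49, and 1 desmosome gene, Dsg1a, passed in bulge cells. A filter on dim probe sets left 6 in the difference of effects. Without bulge cKO replicates 2 and 3 it was 116 in bulge cells and 3 in the difference of effects, and without cKO replicates 2 and 3 of both compartments it was 80, 41 and 3. Leaving out 1 array at a time gave 116 to 2553 genes and 0 to 2 desmosome genes in bulge cells, 38 to 107 genes in IFE cells, 3 to 240 in the difference of effects, and 3 to 5 desmosome genes between the cKO compartments. Centring each array on its median turned the share of higher calls to 43.1%, against 52.6%, between the WT compartments, to 41.5%, against 54.7%, between the cKO compartments, and to 40.3%, against 51.7%, between bulge genotypes.

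Replicate numbers were not taken as pairing the samples. Between bulge cKO and IFE cKO, correlations of same-numbered deviations ran from -0.57 to 0.15. Between genotypes they ran from -0.62 to 0.18. Between bulge WT and IFE WT they were 0.25, 0.04 and 0.14 for replicates 1 to 3. There replicates 1 and 3 matched their own number best, and whether the WT samples were paired by animal is not known. With a fixed replicate block, 412 genes passed in bulge cells, 33 in IFE cells and 2 in the difference of effects, and no desmosome gene passed between genotypes.

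Most changes of sign were small in size. The largest was that of Dsc1 in the difference of effects, from 0.42 to -0.28 without bulge cKO replicates 2 and 3. In bulge cells Dsg2 turned to 0.016 under cyclic loess and 0.019 with the default weights, and ran from -0.17 to 0.071 without single arrays, and Dsp turned to 0.011 with the default weights. In IFE cells Dsg1a turned to -0.11 with the default and -0.030 with the gene by gene weights. Without single arrays, Dsg1a ran there from -0.011 to 0.45, Dsc3 from -0.071 to 0.0058 and Jup from -0.012 to 0.098. Between the cKO compartments Dsp turned to -0.035 under median centring and Dsc1 to 0.078 with the default weights, and without single arrays Dsp ran from -0.016 to 0.026 and Dsc1 from -0.51 to 0.13. Without bulge cKO replicates 2 and 3, Dsc2 turned to -0.028, Dsc3 to -0.081 and Jup to -0.085 in bulge cells, also when those of IFE were left out. The difference of effects then turned to -0.28 for Dsc1, -0.048 for Dsc3, -0.00805 for Pkp1 and -0.14 for Jup, and Dsp to -0.052 between the cKO compartments. With the replicates of both compartments left out, these were -0.079 for Dsg2, -0.030 for Dsc3, -0.044 for Pkp1 and -0.18 for Jup, and -0.043 for Dsp. The difference of effects of Jup ran from -0.040 to 0.12 without single arrays. The cause was not tested.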
